A study of Brachypodium distachyon and Sorghum bicolor and Panicum virgatum with 44 samples.

Results

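Predicted target sites of 2 conserved plant miRNA families, miR160 and miR167, were taken from the deposited PARE site tables of sorghum, switchgrass and the model grass Brachypodium distachyon. A site was kept when the first miRNA named for it belonged to miR160 or miR167, whether or not a read supported it, and a site is 1 transcript and 1 cleavage position. This gave 1088 of the 36467 predicted sites in the 3 tables: 810 of 25863 in Brachypodium, 131 of 7435 in sorghum and 147 of 3169 in switchgrass. By family, Brachypodium had 390 sites of miR160 and 420 of miR167, sorghum had 49 and 82, and switchgrass had 40 and 107. No site was shared by both families.

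In plants, miR160 and miR167 guide the cutting of mRNAs that encode auxin response factors (ARFs), the transcription factors that bind auxin-responsive promoters through a B3 DNA binding domain. In Arabidopsis, miR160 acts on ARF10, ARF16 and ARF17, which act mainly as repressors, and miR167 acts on ARF6 and ARF8, which act as activators. AUX/IAA proteins bind ARFs through a shared C-terminal domain and hold them inactive until auxin, with the receptor TIR1, triggers their destruction. A plant miRNA usually cuts a well-paired mRNA opposite its bases 10 and 11, and PARE (Parallel Analysis of RNA Ends) sequences the 5′ ends of the uncapped fragments that such a cut leaves.

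The study compared 34 PARE libraries, 14 of Brachypodium Bd21, 10 of sorghum BTx623 and 10 of switchgrass AP13, and 10 RNA-seq libraries of Brachypodium Bd21. RNA-seq covered above ground tissue of control plants at 20 °C and of plants after 12 h of drought (taken out of the soil with roots dried), cold at 4 °C, full submergence in water, or heat at 40 °C, with 2 biological replicates each. Brachypodium PARE libraries came from the same 5 conditions and from leaf, stem, panicle and root, and sorghum and switchgrass libraries came from unstressed tissues and from plants after 24 h at 4 °C with their control. The labels give above ground tissue for the cold and cold control libraries of both species, while the study's methods name upper leaf blades for switchgrass. Above ground tissue mixes organs and cell types, and no marker check of the tissue labels could be made, since the gene identifiers could not be paired with reference gene names.

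Each table gives 1 value per site and not 1 per library, so PARE conditions could not be compared at a site, and there is no SD or n. The abundance is the number of PARE reads at the cleavage position, scaled by the authors to a common library size and rounded (TP10M), and the table names 1 library for it. A level runs from 0 (no read) to 4: a site with a read starts at 1 and gains 1 for an abundance of at least 10 TP10M, 1 for being the highest or second highest position of its transcript (rank 1 or 2), and 1 for holding at least 20% of the PARE signal of the transcript. That rule gave the deposited level at all 36467 sites, whereas the text of the study states a lower share for the last criterion. The files give no depth behind a PARE value, the library totals that the study lists were not used here, and the intervals below cover counting error over sites only. In Brachypodium, 4 of the library names (BDI20, BDI21, BDI23 and BDI25, which the study lists as the first root, leaf, stem and panicle libraries) are not samples of this series, while the 4 tissue libraries that are samples of it were named for no site.

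The mature guide strands are shown because 32 of the 35 sites at Level 3 or 4 were predicted from them, including all those in sorghum and switchgrass. Names given for switchgrass are those of matching known miRNAs of other species, with the prefix ata or atr left out. The study states that miRBase lacked switchgrass miRNAs. Capitals mark the seed, bases 2 to 8 from the 5′ end, and each family has 1 guide seed across the 3 species, GCCUGGC for miR160 and GAAGCUG for miR167.
miR160a-5p, b-5p, c-5p and d-5p (Brachypodium), miR160a to e (sorghum), miR160c-5p (switchgrass): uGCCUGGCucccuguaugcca
miR160f (Brachypodium): uGCCUGGCucccuguaugcc
miR160e-5p (Brachypodium), miR160f (sorghum): uGCCUGGCucccugaaugcca
miR167a, b and f (Brachypodium), miR167a, b and i (sorghum), miR167e-5p (switchgrass): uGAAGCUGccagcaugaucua
miR167c to h (sorghum), miR167 (switchgrass): uGAAGCUGccagcaugaucug
miR167c-5p, d-5p, e-5p and g (Brachypodium), miR167d-5p (switchgrass): uGAAGCUGccagcaugaucuga

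Counted from 1 at the 5′ end, the miR160e-5p form carries U15A against the miR160a-5p form, and Brachypodium miR160f lacks the last base. The other miR167 forms carry A21G against the miR167a form, and the last is 1 base longer, with 22 bases. Only Brachypodium sites were also predicted from passenger strands (named 3p), which pair with the guide in the precursor. Each passenger sequence had a seed of its own, and the 3 with a Level 3 site are shown for contrast.
miR160b-3p and c-3p (Brachypodium): gCGUGCAAggagccaagcaug
miR167e-3p (Brachypodium): aGGUCAUGcuggaguuucauc
miR167c-3p (Brachypodium): gAUCAUGCugugcaguuucauc

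Passenger strands accounted for 281 of the 390 miR160 sites and 320 of the 420 miR167 sites in Brachypodium. Guide strands accounted for the other 109 and 100, and for all sites in sorghum and switchgrass. No site was predicted from both strands. At all 1088 sites the last base of the site lay 9 bases past the cleavage position. Nearly every transcript carried 1 site of a family: 386 of 388 transcripts for miR160 in Brachypodium and 410 of 415 for miR167, with 2 sites at most.

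Few predicted sites reached Level 3 or 4, and those that did were mostly guide-strand sites. Sites at these levels are called prominent below, and the genes of prominent guide sites are called targets. Some of these sites had few reads or a small share of the signal, so the level alone does not show clear cleavage. Of the miR160 guide sites, 6 of 109 in Brachypodium (5.50%, 95% Wilson interval 2.55 to 11.5%), 5 of 49 in sorghum (10.2%, 4.44 to 21.8%) and 8 of 40 in switchgrass (20.0%, 10.5 to 34.8%) reached Level 3 or 4. The miR167 guide sites did so at 4 of 100 in Brachypodium (4.0%, 1.57 to 9.84%), 4 of 82 in sorghum (4.88%, 1.91 to 11.9%) and 5 of 107 in switchgrass (4.67%, 2.01 to 10.5%). For sites of all other miRNAs, both strands included, the share was 0.734% of 25053 in Brachypodium, 0.863% of 7304 in sorghum and 3.54% of 3022 in switchgrass. The lower bound of the interval lay above the share of the other miRNAs for miR160 in each species, and for miR167 in Brachypodium and sorghum but not in switchgrass. With both strands on each side in Brachypodium, 7 of 390 miR160 sites reached Level 3 or 4 (1.79%, 0.872 to 3.66%). For miR167 it was 6 of 420 (1.43%, 0.656 to 3.08%). The share of the other miRNAs lay below the first interval and within the second. The intervals of the 2 families overlapped in Brachypodium and sorghum and were just apart in switchgrass, with miR160 from 10.50% and miR167 up to 10.48%. That gap is too small to set the families apart, since the intervals treat sites as separate. Sites of equal abundance in the same library may hold the same reads. Counting such values once left 6 miR160 and 2 miR167 sites at Level 3 or 4 in switchgrass. Shares cannot be set against each other across species, since the sorghum and switchgrass transcripts were picked for their similarity to Brachypodium transcripts that had a read at a target site.

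**Figure D1:**
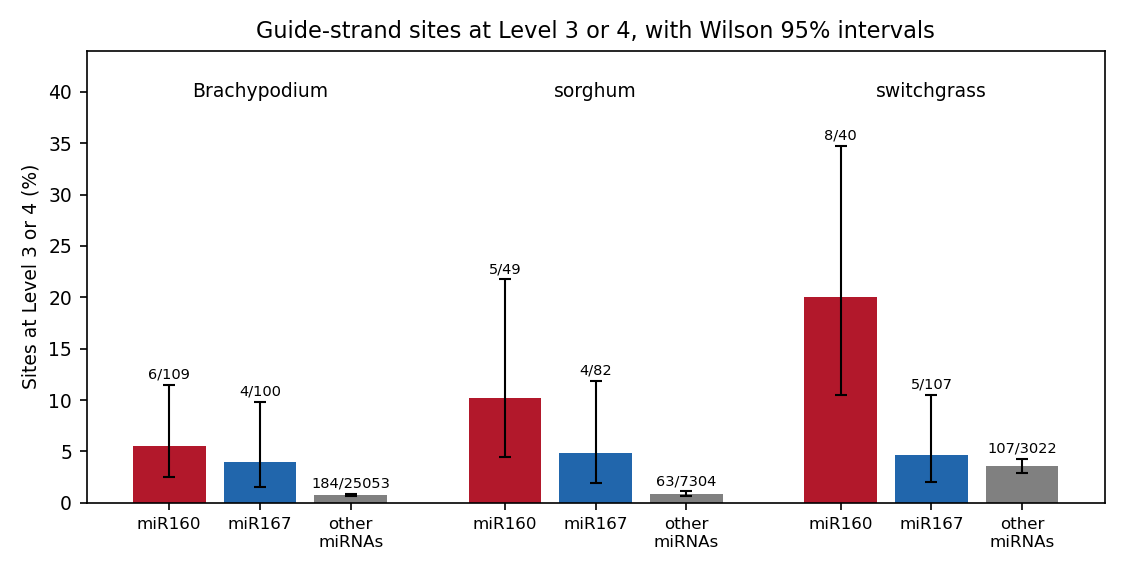
Share of predicted sites at Level 3 or 4 in each species (vertical axis, percent), for miR160 guide strands (red), miR167 guide strands (blue) and all other miRNAs with both strands (grey). Bars start at 0, lines are Wilson 95% intervals for counting error, and the labels give sites at Level 3 or 4 of all sites. The highest bar is miR160 in switchgrass at 20.0%, but shares cannot be set against each other across species.

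Passenger-strand sites reached Level 3 at 1 of 281 for miR160 (0.356%, 0.0628 to 1.99%) and 2 of 320 for miR167 (0.625%, 0.172 to 2.25%), and none reached Level 4. A read alone was more frequent: it was found at 133 of 281 miR160 passenger sites (47.3%, 41.6 to 53.2%) and 39 of 109 guide sites (35.8%, 27.4 to 45.1%), and at 150 of 320 miR167 passenger sites (46.9%, 41.5 to 52.3%) and 40 of 100 guide sites (40.0%, 30.9 to 49.8%). Over all Brachypodium sites a read was found at 37.8% of 25863. Most of these reads were at the lowest value, 1 TP10M, which held for 143 of the 172 miR160 sites with a read in Brachypodium and for 152 of the 190 miR167 sites. In sorghum a read was found at 19 of 49 miR160 sites (38.8%, 26.4 to 52.8%) and 21 of 82 miR167 sites (25.6%, 17.4 to 36.0%), against 24.9% over all sorghum sites. In switchgrass it was found at 19 of 40 (47.5%, 32.9 to 62.5%) and 34 of 107 (31.8%, 23.7 to 41.1%), against 46.5% over all sites. The share over all sites lay within the interval for guide sites of both families in Brachypodium, for miR167 in sorghum and for miR160 in switchgrass. It lay below the interval for passenger sites of both families and for miR160 in sorghum, and above it for miR167 in switchgrass.

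In sorghum the 3 most abundant sites of the whole table were miR160 sites. The site at position 1470 of Sobic.004G221400.1 had 78134 TP10M and held 93.9% of the PARE signal of its transcript, with cold replicate 1 named as its library. Position 1848 of Sobic.001G217300.1 had 3110 TP10M and 89.7% of the signal, again in cold replicate 1, and position 1397 of Sobic.010G236300.1 had 1893 TP10M and 50.1% in root replicate 2. The highest sorghum site of any other miRNA family had 893 TP10M. Sobic.006G149600.1 at position 1478 had 450 TP10M (78.3%, leaf replicate 2) and Sobic.006G278900.1 at position 1550 had 24 TP10M (46.2%, cold replicate 1). All 5 were rank 1 and Level 4, and the 14 remaining miR160 sites with a read in sorghum were all at 1 TP10M, so no site lay between 1 and 24 TP10M. The naming of a cold library for 3 of the 5 sites is no comparison with the cold control, whose value at these sites is not in the table.

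Switchgrass, a tetraploid with subgenomes K and N, had 8 miR160 sites at Level 3 or 4. Position 1467 of Pavir.1KG387700.1, whose transcript is annotated with the ARF domain PF06507, had 2364 TP10M and 61.1% of the signal in panicle replicate 2. In stem replicate 1, Pavir.9KG184300.1 had 2474 TP10M at position 1769 and Pavir.9NG296900.1 had the same value at position 1016, holding 81.5% and 78.5% of the signal of their transcripts. Pavir.3NG324900.1 at position 2677 and Pavir.4KG394900.1 at position 1882 both had 290 TP10M in the same library, with 26.5% and 50.0%. An equal abundance in the same library at 2 sites means that the reads cannot be assigned to one of the transcripts from this table. Pavir.7KG236900.1 at position 1738 had 370 TP10M (47.6%, panicle replicate 2) and Pavir.7KG361700.1 at position 1309 had 19 TP10M (33.3%, panicle replicate 2). Pavir.7NG416700.1 at position 1207 was the only one at Level 3, with 10 TP10M and 9.43% of the signal in leaf replicate 1. The other 11 miR160 sites with a read were at 1 TP10M, as in sorghum with a gap between sites at that value and prominent sites.

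In Brachypodium, 6 miR160 guide sites were at Level 4, all rank 1, from 165 to 1583 TP10M. The strongest was position 3322 of Bradi3g06487.2, with 1583 TP10M and 80.5% of the signal, the fourth highest abundance of the 25863 Brachypodium sites. Bradi3g49320.1 at position 1758 had 709 TP10M and 71.2%, and Bradi5g15904.1 at position 1830 had 165 TP10M and 64.5%. All of these 3 named BDI21, the first leaf library, which is outside this series. Position 2159 of Bradi1g33160.1, whose transcript is annotated with the B3 domain PF02362, and position 1673 of Bradi3g28950.1 both had 262 TP10M in BDI20, the first root library, with 38.7% and 43.7% of the signal, so that their reads cannot be told apart here. Bradi5g27400.1 at position 1319 had 224 TP10M and 50.3% in submergence replicate 2, the only Level 4 site of either family in Brachypodium that named a library of this series.

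The miR167 sites were weaker. In Brachypodium the 3 at Level 4 were position 3349 of Bradi1g32547.1 (100 TP10M, 28.7% of the signal, rank 1), position 3366 of Bradi4g01730.1 (100 TP10M, 21.6%, rank 2) and position 3288 of Bradi3g04920.1 (96 TP10M, 55.5%, rank 1), all in BDI20. Bradi1g32547.1 is annotated with the AUX/IAA family domain PF02309, which ARFs can also carry at their C-terminus. The first 2 had the same abundance in the same library. The remaining guide site at Level 3 or 4, position 661 of Bradi1g62691.2, had 31 TP10M but only 2.08% of the signal, in BDI23. Even the lowest miR160 guide site at Level 4 in Brachypodium, at 165 TP10M, lay above the highest miR167 site at 100 TP10M.

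Sorghum had 4 prominent miR167 sites. Position 3465 of Sobic.010G229000.1 had 246 TP10M and 19.2% of the signal in root replicate 2, just under the 20% criterion, so it stayed at Level 3. Position 3026 of Sobic.008G169400.1 had 156 TP10M and 59.3% in leaf replicate 2, and position 2139 of Sobic.001G006000.1 had 31 TP10M and 20.1% in cold replicate 1, just above the criterion; both were at Level 4. Sobic.004G051900.1 at position 3491 had 14 TP10M and 13.0% at Level 3. The highest site below Level 3 was position 2547 of Sobic.006G262100.1, with 10 TP10M and 2.13% of the signal.

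In switchgrass 4 of the 5 prominent miR167 sites had 22 TP10M in leaf replicate 1: Pavir.3KG544300.1 at position 3387 and Pavir.3NG281900.1 at position 2454, at Level 4, and Pavir.4KG408000.1 at position 2578 and Pavir.4NG303000.1 at position 3319, at Level 3. The number of transcripts behind these equal values was not tested, and counting them once leaves 2 prominent sites in place of 5. That value made up 26.2% and 24.7% of the signal of the first 2 transcripts but 2.31% and 2.54% of the others. Pavir.3KG544300.1 is annotated as an ARF (PF06507). The last, position 2690 of Pavir.7KG382600.1, had 1 TP10M and reached Level 3 because that was 33.3% of the few reads on its transcript. Pavir.1NG060500.1, also annotated as an ARF, had a miR167 site at position 3189 with 2 TP10M (Level 2, rank 1, 0.304% of the signal). Pavir.3KG336300.1, annotated with the AUX/IAA family domain, had 1 TP10M at position 1324 (0.162%).

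**Figure D2:**
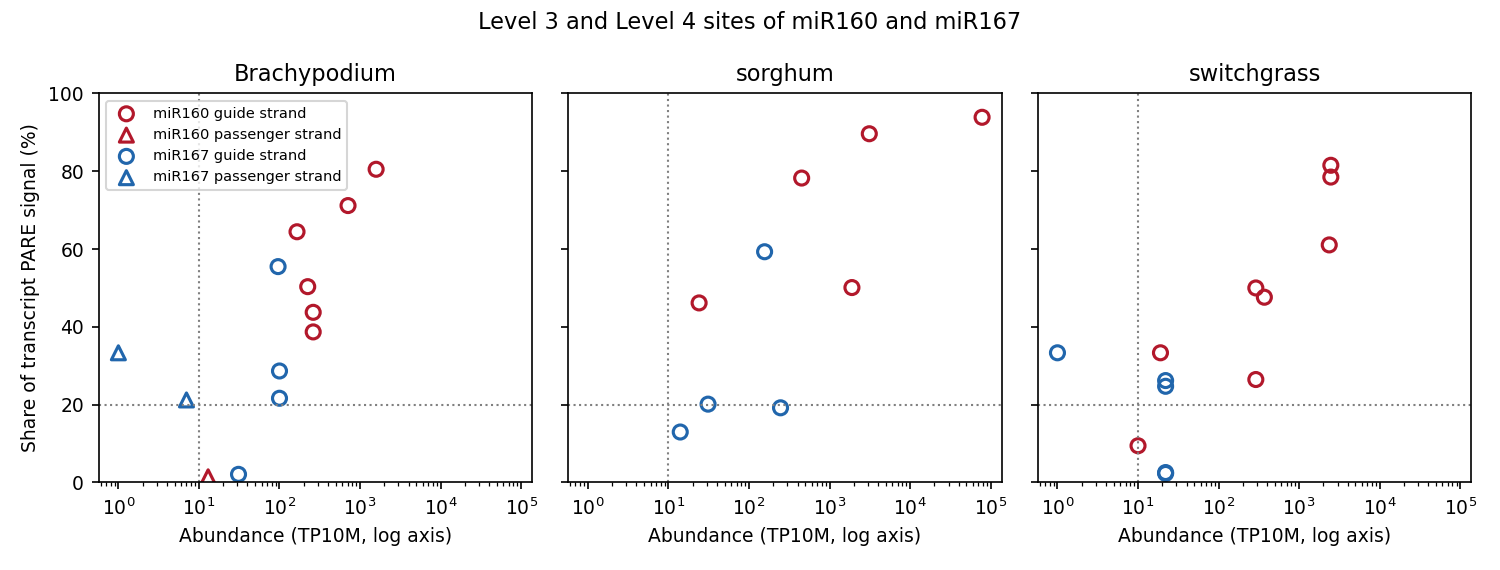
All sites of miR160 (red) and miR167 (blue) at Level 3 or 4, by abundance in TP10M (horizontal log axis) and share of the PARE signal of the transcript in percent (vertical axis), for guide strands (circles) and passenger strands (triangles). Dotted lines mark 10 TP10M and 20%; the highest miR167 share is 59.3%, and the 9 sites above it are all miR160 sites.

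Outside the guide strands, 3 Brachypodium sites were at Level 3. Bradi2g52336.1 (miR160b-3p and c-3p, position 113) had 13 TP10M and 1.44% of the signal in BDI23. Bradi3g42837.1 (miR167e-3p, position 2979) had 7 TP10M and 21.2% in BDI21, and Bradi1g60675.1 (miR167c-3p, position 40) had 1 TP10M and 33.3% in drought replicate 1. The highest sites below Level 3 in Brachypodium were position 2686 of Bradi5g02490.1 for miR167 (47 TP10M, 0.935% of the signal, cold replicate 2) and position 1520 of Bradi4g19470.1 for miR160a-3p (19 TP10M, 0.151%, BDI25). Of these, Bradi5g02490.1 shows that abundance alone did not make a site prominent. Bradi1g46602.6, annotated with the AUX/IAA family domain, had a miR167e-3p site at position 3925 with 1 TP10M and 0.258% of the signal.

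Sites of the 2 families made up 9 of 60 Level 4 sites in Brachypodium, 7 of 28 in sorghum and 9 of 55 in switchgrass. Of these, 6, 5 and 7 were miR160 sites. The text of the study gives fewer Level 4 sites for switchgrass than these 55, and fewer sites with a read. The deposited switchgrass set used here, also for the shares over other or all sites, therefore differs from the one described there. Pfam annotation of the transcripts was at hand for only part of the sites, 39 of miR160 and 37 of miR167 in Brachypodium, 12 and 38 in switchgrass and none in sorghum. Of the annotated sites at Level 3 or 4, 1 per family in Brachypodium and in switchgrass, all 4 carried a B3, ARF or AUX/IAA domain. Across all annotated sites those domains were found at 1 miR160 site and 2 miR167 sites in Brachypodium, and at 1 and 3 in switchgrass. The other prominent transcripts are given by identifier only.

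The 2 families differed in how well prominent sites matched their miRNA. TargetFinder gives penalty points for mismatches, with 0 for a perfect match and predictions kept up to 4, and psRNATarget gives an expectation on a similar scale up to 5. All 19 miR160 guide sites at Level 3 or 4 had a TargetFinder score between 0 and 3, in Brachypodium between 0 and 2. Among miR160 guide sites with a score of at most 3, 6 of 8 in Brachypodium, 5 of 5 in sorghum and 8 of 8 in switchgrass were at Level 3 or 4, against 0 of 8, 0 of 3 and 0 of 2 among those with a higher score and 0 of 93, 0 of 41 and 0 of 30 among those with no score. The exceptions were Bradi1g12477.1 and Bradi3g31890.1, which scored 3 and had no read.

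Prominent miR167 sites sat at the edge of prediction. Of the 13 miR167 guide sites at Level 3 or 4, only Sobic.001G006000.1 had a TargetFinder score, of 4, and the rest were psRNATarget predictions with a best expectation of 3.5 to 4.5. In contrast, miR167 guide sites with an expectation of at most 3 had none at Level 3 or 4, of 1 in Brachypodium and 6 in switchgrass. The best of all miR167 scores, 0, was at Bradi4g02473.1, which had no read. An expectation of 4.5 was the best value at 3 of the 4 prominent guide sites in Brachypodium, 3 of 4 in sorghum and 4 of 5 in switchgrass, while 27, 20 and 28 guide sites in all had that value. So a TargetFinder score of at most 3 set off prominent sites for miR160, while for miR167 no prominent guide site scored that low. Expectation was not without relation to prominence for miR167. All prominent miR167 guide sites except Sobic.001G006000.1, at 5, had an expectation of 4.5 or less. Under 4.5, prominent sites were 1 of 17 in Brachypodium, 0 of 12 in sorghum and 1 of 20 in switchgrass. Over all miR167 guide sites they were 4 of 100, 4 of 82 and 5 of 107.

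**Figure D3:**
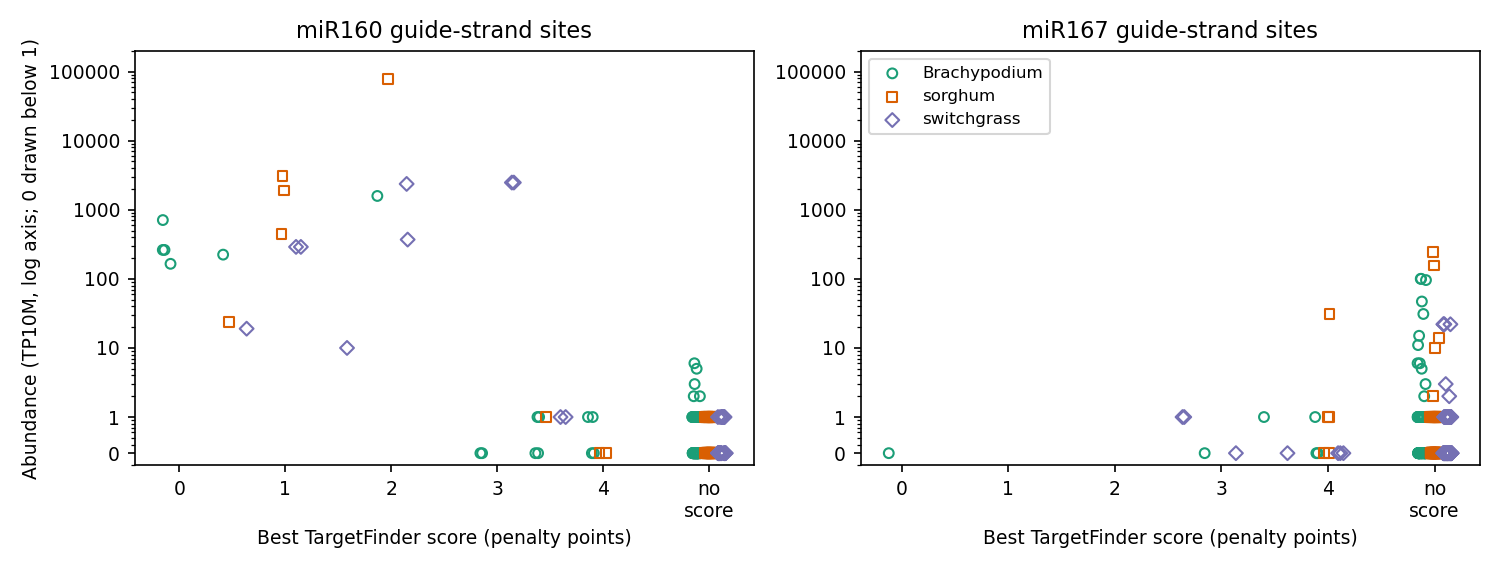
Abundance in TP10M (vertical log axis, with sites without a read drawn at the mark 0) of guide-strand sites by best TargetFinder score (horizontal axis; penalty points, and sites without a score at the right), with miR160 on the left and miR167 on the right. Symbols are species, shifted sideways for view; miR160 sites of 10 TP10M or more all score 3 or less, while miR167 sites of 10 TP10M or more have no score except 1 with a score of 4.

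The 2 programs did not list the same miR160 sites. psRNATarget gave no expectation for 4 of the 6 prominent miR160 guide sites in Brachypodium, 3 of 5 in sorghum and 5 of 8 in switchgrass, among them Sobic.004G221400.1 with 78134 TP10M. Where it gave one, the best value ran from 0 to 2. Between miRNA forms, the 20-base miR160f of Brachypodium scored best at 5 of the 6 prominent sites. At Bradi1g33160.1, Bradi3g28950.1, Bradi3g49320.1 and Bradi5g15904.1 it had a TargetFinder score of 0, against 1 for the form with 1 base more and 2 for the form with U15A. At Bradi3g06487.2 the 3 scores were 2, 3 and 4. Bradi5g27400.1 differed, with 0.5 for both forms without the substitution and 1 for the form with it.

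RNA-seq showed all 10 Brachypodium genes with a prominent guide site to be expressed in above ground tissue, at mean levels over the 10 libraries from 1.41 to 298 TPM (a length-scaled transcript level that sums to the same total in each library). All 800 member genes were found in the RNA-seq files, with a median of 8.86 TPM against 3.85 TPM over all 34310 genes, and 614 of the 800 were at 1 TPM or more. The 360 member genes with a PARE read had a median of 23.0 TPM and the 440 without had 1.98 TPM, so sites with reads lay in more abundant transcripts. The guide targets themselves spread widely: Bradi1g62691 (miR167) had 298 ± 82.98 TPM (SD over 10 libraries), Bradi3g06487 (miR160) 42.6 ± 59.9, Bradi4g01730 (miR167) 41.5 ± 10.6, Bradi1g32547 (miR167) 40.5 ± 11.3 and Bradi3g04920 (miR167) 28.9 ± 7.78. Then came 5 miR160 genes, Bradi3g28950 with 20.4 ± 11.9, Bradi1g33160 with 17.5 ± 4.29, Bradi3g49320 with 11.7 ± 6.95, Bradi5g27400 with 1.95 ± 1.18 and Bradi5g15904 with 1.41 ± 0.363. Neighbours in that order differed by less than the larger of their SDs, except that Bradi1g62691 stood above Bradi3g06487, Bradi1g32547 above Bradi3g04920 and Bradi3g49320 above Bradi5g27400. Those SDs span all 5 conditions, so they include changes under stress and do not measure replicate spread alone. For Bradi3g06487 the SD over the 2 control libraries was 1.13 TPM. Bradi3g06487, first in PARE abundance among the 10, was second in mean RNA level over the 10 libraries, a mean raised by its cold values. In control its mean was 11.8 TPM, below Bradi1g33160 (19.7 TPM), Bradi3g28950 (16.5 TPM) and Bradi3g49320 (15.8 TPM). Bradi1g62691, first in RNA level, had the lowest PARE abundance, 31 TP10M. These are levels in bulk tissue, in which fewer cells of a type and less RNA per cell cannot be told apart.

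**Figure D4:**
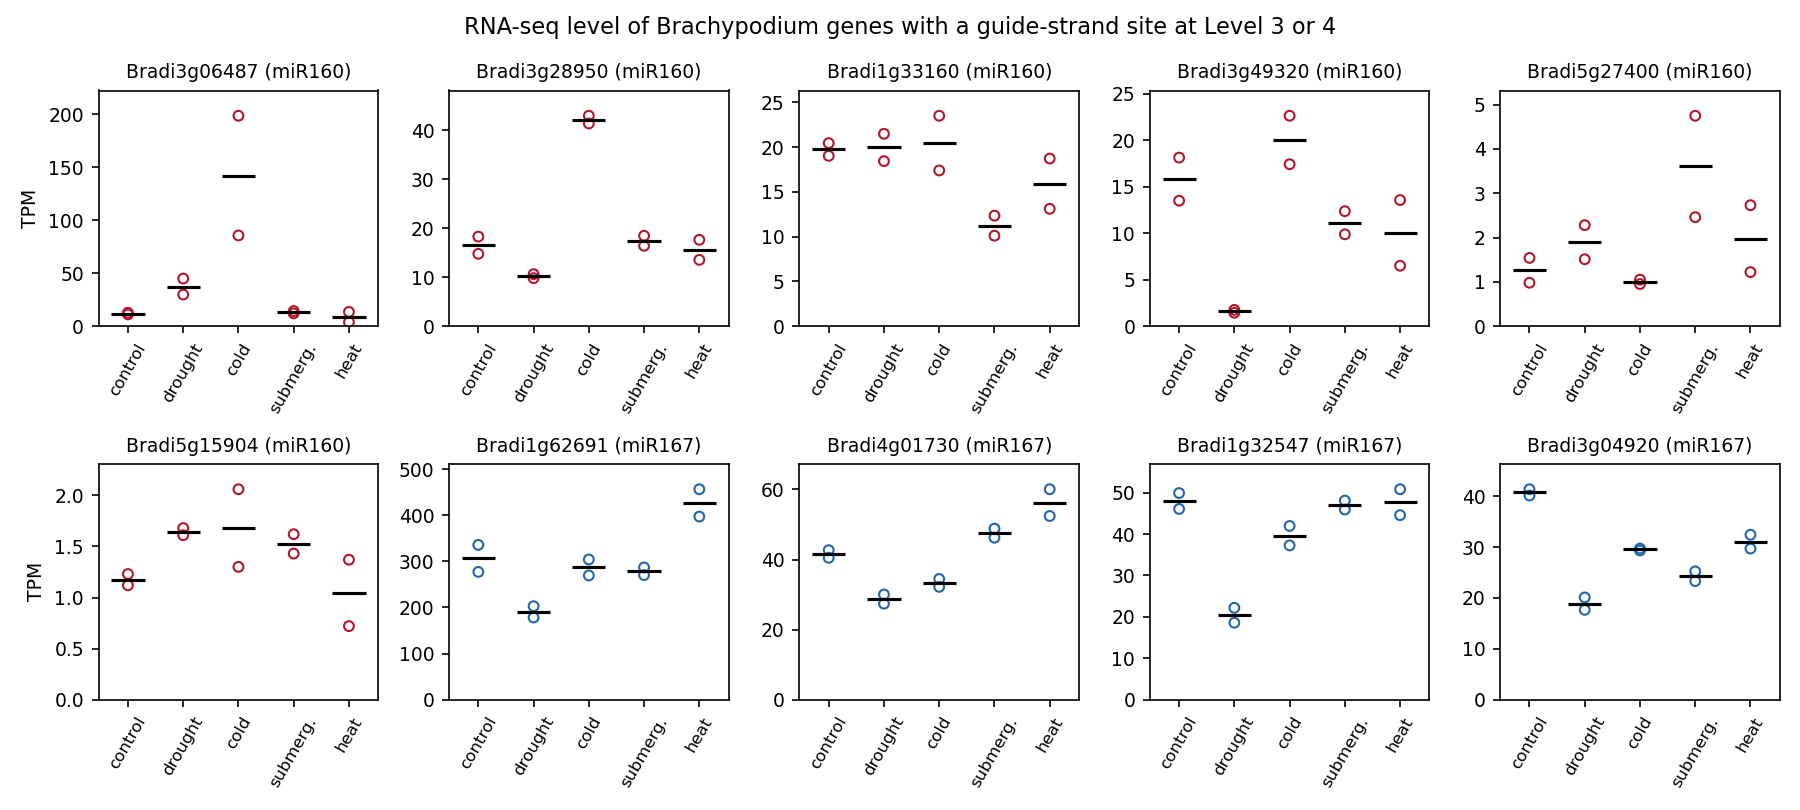
RNA-seq level in TPM (vertical axis, from 0, with a scale of its own in each panel) of the 10 Brachypodium genes with a guide-strand site at Level 3 or 4, in the 5 conditions. Circles are the 2 replicates and lines their mean, with miR160 targets in red and miR167 targets in blue; Bradi3g06487 reaches 85.5 and 198 TPM in cold from 12.6 and 11.0 TPM in control.

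Each stress was compared with control to ask whether the transcripts of these genes changed. Counts of reads per library ran from 9885330 to 17978714, and edgeR's quasi-likelihood test with Benjamini-Hochberg adjustment over 23494 genes was used. Of the 800 member genes 663 passed the filter on low counts. In drought 441 of the 663 were called (66.5%), against 64.9% of all genes tested. Cold called 149 (22.5%, background 21.8%), submergence 190 (28.7%, background 31.5%) and heat 106 (16.0%, background 16.9%). Member genes as a whole therefore changed about as often as other genes. Drought raised 241 and lowered 200 (background 32.1% and 32.8%), cold raised 93 and lowered 56 (12.2% and 9.63%), submergence raised 89 and lowered 101 (14.9% and 16.6%), and heat raised 56 and lowered 50 (8.21% and 8.7%). With scaling by library size alone the splits were 180 and 249, 58 and 125, 153 and 66, and 113 and 33, and the median of all genes shifted to -0.36, -0.30, 0.20 and 0.17 on the log2 scale, from -0.07, -0.02, 0.00 and 0.01. The counts depend on single libraries: without control replicate 1 or 2 the cold count was 77 or 68, the submergence count 108 or 62 and the heat count 37 or 17, without cold replicate 1 there were 66, without submergence replicate 2 there were 118, and without heat replicate 1 or 2 there were 53 and 27.

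Among the miR160 targets, Bradi3g06487 rose most. Its level was 12.6 and 11.0 TPM in control and 85.5 and 198 TPM in cold, a log2 fold change of 3.85 ± 0.56 (SE, n = 2 per group, edgeR adjusted p = 0.0011). Both cold replicates lay far above both controls, though they differed more than 2-fold from each other. In drought it had 29.8 and 44.9 TPM, a log2 fold change of 1.89 ± 0.52 (edgeR adjusted p = 0.0095), and the call was lost without control replicate 2 (adjusted p = 0.064) or drought replicate 2 (adjusted p = 0.066). In submergence it had 14.2 and 12.0 TPM and in heat 13.4 and 3.70 TPM, and neither passed the test.

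Bradi3g28950, a second miR160 target, also rose in cold, to 43.01 and 41.4 TPM from 14.8 and 18.3 TPM in control (log2 fold change 1.61 ± 0.17, edgeR adjusted p = 1.9e-04). In drought it had 9.81 and 10.6 TPM, a log2 fold change of -0.48 ± 0.18 (edgeR adjusted p = 0.037). That drought call was lost with DESeq2 (adjusted p = 0.12) and without control replicate 2 (0.25), drought replicate 1 (0.16) or drought replicate 2 (0.066). Submergence (18.5 and 16.4 TPM) and heat (17.6 and 13.6 TPM) overlapped with control.

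Bradi3g49320 fell in drought, to 1.75 and 1.44 TPM from 13.5 and 18.1 TPM (log2 fold change -3.09 ± 0.35, edgeR adjusted p = 4.5e-05). It was the largest fall among the prominent guide targets, with both drought replicates far below all other libraries. In cold it had 17.4 and 22.6 TPM, in submergence 9.87 and 12.4 TPM and in heat 13.5 and 6.49 TPM, none of which passed the test (adjusted p = 0.17, 0.074 and 0.075 by edgeR). Without heat replicate 1 its heat value became a log2 fold change of -1.38 with an adjusted p of 0.020.

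The B3 domain gene Bradi1g33160 fell in submergence, to 12.3 and 10.1 TPM from 20.4 and 19.0 TPM (log2 fold change -1.05 ± 0.21, edgeR adjusted p = 0.0056), with no overlap between the groups. Drought (18.4 and 21.5 TPM), cold (23.5 and 17.4 TPM) and heat (18.7 and 13.1 TPM) did not pass. The 2 targets of low level, Bradi5g27400 and Bradi5g15904, stayed between 0.720 and 4.75 TPM and passed in no stress. For Bradi5g27400 submergence gave 2.46 and 4.75 TPM against 1.54 and 0.980 TPM (log2 fold change 1.27 ± 0.44, edgeR adjusted p = 0.053), and this passed under library size scaling (0.035), with no filter (0.047) and without submergence replicate 1 (0.032).

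Of the 4 miR167 targets, 3 fell in drought, where 32.8% of all genes tested fell, and 1 of the 3 calls (Bradi1g62691) was lost in alternatives given below. Bradi1g32547, with the AUX/IAA domain, had 18.6 and 22.2 TPM in drought and 46.1 and 49.9 TPM in control (log2 fold change -1.01 ± 0.15, edgeR adjusted p = 2.8e-04). Its cold (37.3 and 42.0 TPM), submergence (48.1 and 45.9 TPM) and heat (50.8 and 44.6 TPM) values did not pass. Fold changes rest on TMM-scaled counts, so that lower TPM in cold, as here, can go with a fitted log2 fold change near 0 (-0.01 ± 0.15).

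Bradi3g04920 had 40.1 and 41.4 TPM in control and was below that in each stress: 17.7 and 20.1 TPM in drought (log2 fold change -0.88 ± 0.13, edgeR adjusted p = 2.4e-04), 23.3 and 25.2 TPM in submergence (-0.99 ± 0.13, adjusted p = 8.3e-04), 32.4 and 29.7 TPM in heat (-0.55 ± 0.13, adjusted p = 0.019) and 29.3 and 29.7 TPM in cold (-0.16 ± 0.13, adjusted p = 0.41). The heat call was lost under library size scaling (0.055) and without control replicate 1 (0.074) or 2 (0.13) or heat replicate 1 (0.086) or 2 (0.11), whereas the cold difference passed under library size scaling (-0.44, adjusted p = 0.028). The drought and submergence calls were not lost with any library left out. Of the other miR167 targets, Bradi4g01730 had 27.4 and 30.0 TPM in drought against 42.7 and 40.5 TPM (-0.31 ± 0.13, edgeR adjusted p = 0.055), which passed under library size scaling (-0.60, adjusted p = 0.0024). In heat it had 60.1 and 52.4 TPM (0.28 ± 0.13, adjusted p = 0.15; 0.44 and 0.038 under library size scaling). Bradi1g62691 had 178 and 203 TPM in drought against 277 and 336 TPM (-0.47 ± 0.17, edgeR adjusted p = 0.037), a call that was lost with DESeq2 (0.084) and without control replicate 2 (0.24) or drought replicate 1 (0.20).

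**Figure D5:**
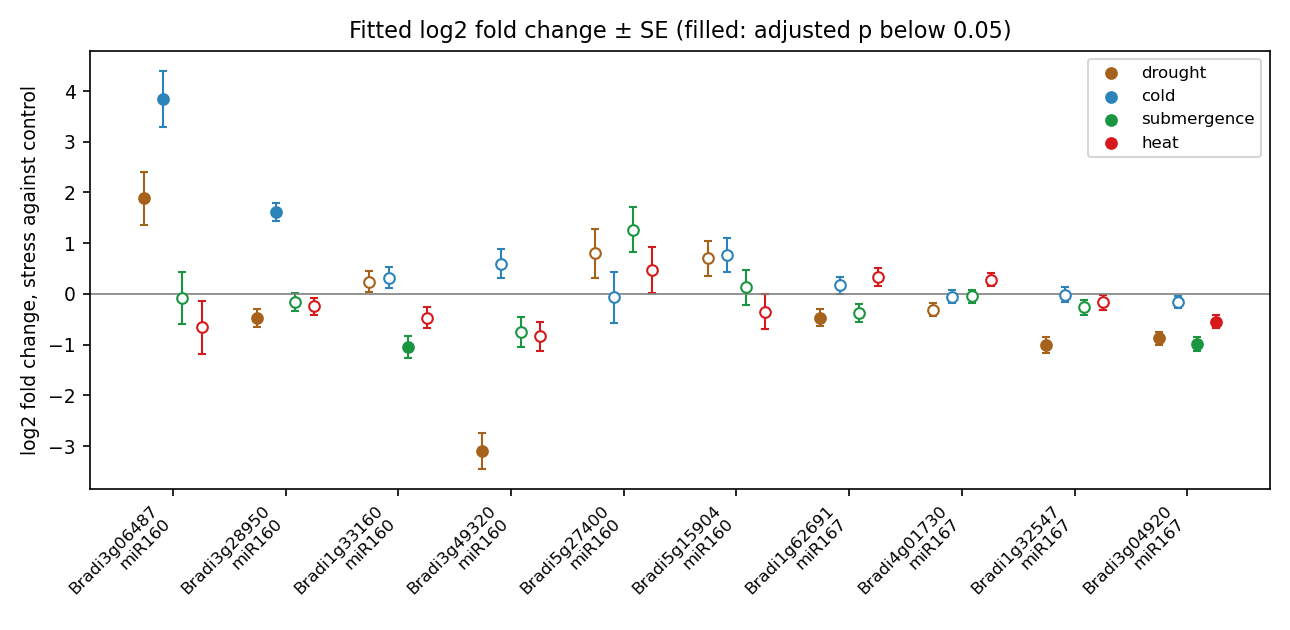
Log2 fold change of each stress against control (vertical axis) for the 10 Brachypodium genes with a guide-strand site at Level 3 or 4, from the edgeR fit over all 10 libraries. Points are colored by stress, bars are ± SE, and filled points have an adjusted p below 0.05; the miR160 target Bradi3g06487 is highest in cold at 3.85 and Bradi3g49320 lowest in drought at -3.09.

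Across these 10 targets the drought calls were 1 rise (Bradi3g06487) and 5 falls (Bradi3g49320, Bradi3g28950, Bradi1g32547, Bradi3g04920 and Bradi1g62691), the cold calls 2 rises, the submergence calls 2 falls and the heat calls 1 fall. These RNA calls were 6, 2, 2 and 1 of 10, against 64.9%, 21.8%, 31.5% and 16.9% of all genes tested. Such counts show nothing particular to the targets in RNA level, and they are no measure of cleavage. The study compared PARE values of stress and control libraries, and proposes that miR167 targets are involved in each stress response it examined. It drew this from sites whose PARE change was not matched by an RNA change in the same direction. The RNA comparisons share their control libraries. Genes of passenger sites at Level 3 moved as well. Bradi2g52336 (miR160b-3p and c-3p) had 2.27 and 2.36 TPM in control, 11.8 and 17.2 TPM in drought (log2 fold change 2.85 ± 0.55, edgeR adjusted p = 0.0012) and 10.5 and 30.2 TPM in cold (3.38 ± 0.53, adjusted p = 0.0018). Bradi3g42837 (miR167e-3p) had 12.2 and 9.40 TPM in submergence against 32.2 and 26.4 TPM (-1.67 ± 0.19, edgeR adjusted p = 5.2e-04). Its heat values of 20.7 and 22.6 TPM (-0.58 ± 0.18, adjusted p = 0.057) passed with DESeq2 (0.034). Bradi1g60675 (miR167c-3p) had no count in any library.

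Other member genes are given for the size of their change. They are the 3 per stress with the largest called change, a mean of at least 10 CPM and no overlap with control, so that passing the test was part of the choice, and those near 0 in control passed the filter through the stress libraries. In drought Bradi2g07480 (miR167d-3p site, 13 TP10M in drought replicate 2, Level 2) rose to 493 and 451 TPM from 0.190 and 0.970 TPM (log2 fold change 9.77 ± 0.75), and in cold to 155 and 45.4 TPM (7.58 ± 0.75). This gene had only 1 and 6 reads in control, so the size of both folds is uncertain. Bradi1g33900, annotated as a protein phosphatase 2C and with a miR167 guide site at 1 TP10M, rose in drought to 406 and 446 TPM from 4.23 and 3.91 TPM (7.11 ± 0.25). Bradi1g58580 (miR160d-3p) had 227 and 263 reads in drought and 0 and 2 in control, too few for a fold. In cold Bradi3g37210 (miR167e-3p) rose to 79.5 and 28.5 TPM from 1.48 and 1.44 TPM (5.47 ± 0.47). Bradi5g25570 (miR160b-3p and c-3p, no read) had 5.08 and 62.6 TPM in cold against 0.850 and 1.35 TPM (5.16 ± 1.07), and its call was lost without control replicate 1 (adjusted p = 0.071) or 2 (0.068).

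In submergence Bradi3g55440, with a miR167 guide site at 1 TP10M, rose to 2823 and 3306 TPM from 399 and 170 TPM (3.16 ± 0.39). Bradi1g34825 (miR160e-3p) rose to 13.1 and 31.7 TPM from a control mean of 1.08 TPM (4.12 ± 0.78), a call lost without control replicate 2 (adjusted p = 0.055), and Bradi2g59180 (miR160b-3p, c-3p, d-3p and a-3p) to 90.9 and 49.2 TPM from 7.86 and 6.11 TPM (3.11 ± 0.52). In heat Bradi2g33682 (miR167d-3p) rose to 146 and 125 TPM from 34.5 and 34.0 TPM (1.84 ± 0.15), and Bradi4g28070 (miR167d-3p, no read) fell to 10.2 and 12.0 TPM from 36.2 and 43.6 TPM (-1.99 ± 0.25). Bradi2g23750 (miR167d-3p) had 114 and 40.5 TPM in heat against 252 and 247 TPM (-1.87 ± 0.52), and its call was lost without control replicate 1 (adjusted p = 0.12) or 2 (0.14) or heat replicate 2 (0.19). Of the 11 genes 9 had a passenger-strand site and none had a site above Level 2, while among all 800 member genes 597 had a passenger-strand site and 13 a site at Level 3 or 4.

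Of a list of 6 auxin signalling genes, 4 annotated with the AUX/IAA domain PF02309 (among them the miR167 target Bradi1g32547) and 2 related to the auxin receptor TIR1, all were tested. ARFs can also carry that domain, so AUX/IAA here names the domain and not the class of the protein. Drought raised 3 and lowered 2, cold raised 2, submergence raised 2 and lowered 1, and heat lowered 1. These are 5, 2, 3 and 1 of 6 genes, against 64.9%, 21.8%, 31.5% and 16.9% of all genes tested. The median log2 fold change of the list was 0.89, 0.36, 0.31 and -0.19, against -0.07, -0.02, 0.00 and 0.01 over all genes tested. The TIR1 gene Bradi2g35720 had 32.5 and 29.6 TPM in control, 117 and 154 TPM in drought (log2 fold change 2.35 ± 0.18, edgeR adjusted p = 3.8e-06) and 80.8 and 85.6 TPM in submergence (1.18 ± 0.17, adjusted p = 0.0012). Its paralog Bradi5g08680 had 49.8 and 47.0 TPM in control and 78.7 and 77.5 TPM in submergence (0.45 ± 0.14, edgeR adjusted p = 0.033), a call lost with no filter (0.054) and without control replicate 1 (0.11) or 2 (0.17) or submergence replicate 1 (0.13) or 2 (0.061). Bradi1g34340 (AUX/IAA) had 57.0 and 61.1 TPM in drought and 27.9 and 17.1 TPM in cold, against 11.7 and 8.94 TPM in control (2.75 ± 0.28 and 1.40 ± 0.27, edgeR adjusted p = 2.1e-05 and 0.0051), and its cold call was lost without control replicate 2 (0.062).

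Bradi1g46602, with the AUX/IAA domain and a miR167e-3p site, had 27.2 and 25.9 TPM in drought and 16.2 and 16.4 TPM in cold. Against 11.1 and 9.23 TPM in control, the log2 fold changes were 1.59 ± 0.15 and 0.92 ± 0.15 (edgeR adjusted p = 1.3e-05 and 0.0018). In heat it had 6.73 and 7.25 TPM (-0.71 ± 0.15, edgeR adjusted p = 0.012), a call lost without control replicate 1 (0.090) or heat replicate 1 (0.075). Bradi1g05410, also with the AUX/IAA domain, fell in drought, to 4.91 and 4.53 TPM from 14.1 and 10.7 TPM (-1.17 ± 0.21, edgeR adjusted p = 9.3e-04). In submergence it fell to 6.46 and 7.51 TPM (-1.06 ± 0.20, edgeR adjusted p = 0.0042). Of the 4 genes with PF02309, 2 rose and 2 fell in drought, and 1 of those that fell is Bradi1g32547, described above, whose domain ARFs can also carry.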

How the data were processed

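PARE tables were deposited with 1 row per miRNA and site. The authors mapped PARE reads with Bowtie 0.12.7 without mismatches, and predicted sites with psRNATarget and TargetFinder. The deposited expectation, TargetFinder score, TP10M abundance, rank and level were used as scores, the deposited share of the PARE signal as a fraction, and the levels as given. In the RNA-seq files the authors gave RSEM 1.2.31 expected counts and TPM per gene from STAR 2.5.3a alignments (Brachypodium v3.1).

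Sites were counted with 95% Wilson intervals (Python 3.11.15, scipy 1.17.1). Expected counts were rounded, filtered by filterByExpr, scaled by TMM and tested in 1 edgeR 4.0.16 fit of all 10 libraries without covariates (R 4.3.3). The threshold was an adjusted p of 0.05, and SE is the log2 fold change over the square root of F. DESeq2 1.42.0, other scaling, no filter, a replicate block and each library left out were alternatives. The method was tested on simulated data.

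Members, gene lists and tests were chosen with earlier results of these data known. Named were all sites at Level 3 or 4, sites of ARF, B3 or AUX/IAA transcripts, the highest site below Level 3, genes of those sites, and per stress the 3 member genes of largest called change. The auxin list covers only transcripts that the annotation at hand reached.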

Additional observations from a re-analysis of the deposited data

How the results depend on the processing

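Site counts moved with what counts as a member or as evidence. With a minimum of 2 TP10M, sites with a read fell to 29 for miR160 and 38 for miR167 in Brachypodium, 5 and 6 in sorghum, and 8 and 6 in switchgrass. Guide strands alone left 39 miR160 and 40 miR167 sites with a read in Brachypodium. Counting equal values in 1 library once left 2 prominent miR167 sites in switchgrass in place of 5. Leaving out sites that name the libraries outside the series, an alternative chosen after seeing the data, left 1 prominent site of each family in Brachypodium, in place of 7 and 6. For miR160 it was the guide site of Bradi5g27400.1 with 224 TP10M. For miR167 it was the passenger site of Bradi1g60675.1 with 1 TP10M, so no prominent miR167 guide site in Brachypodium named a library of this series. A peak criterion of 10% gave 8 miR160 and 9 miR167 sites at Level 3 or 4 in Brachypodium and the same counts as before in sorghum and switchgrass, and that lower criterion is the one in the text of the study.

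Replicate numbers are shared by the 5 RNA-seq groups but did not pair the libraries: of 10 pairs of conditions 2 had a correlation of replicate deviations over 0.1 and 2 under -0.1 (-0.17 to 0.14). With a replicate block, 433, 138, 183 and 96 member genes were called in drought, cold, submergence and heat, against 441, 149, 190 and 106 without it, and no call of a named gene changed. Leaving out each library in turn gave 350 to 381 member genes in drought, 66 to 141 in cold, 62 to 131 in submergence and 17 to 53 in heat. DESeq2 called 411, 159, 178 and 106, and no filter 441, 155, 178 and 100.

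Directions turned only where the difference had not passed the test. Under library size scaling these log2 fold changes became -0.046 and -0.098 (Bradi1g33160 and Bradi5g08680, drought), -0.11, -0.16 and -0.027 (Bradi1g62691, Bradi3g42837 and Bradi5g08680, cold), 0.11, 0.036 and 0.16 (Bradi3g06487, Bradi3g28950 and Bradi4g01730, submergence) and 0.15 (Bradi2g35720, heat). With a library left out they ran from -0.10 to 0.067 (Bradi1g32547, cold), -0.37 to 0.31 (Bradi5g27400, cold), -0.27 to 0.081 (Bradi3g06487, submergence), -0.32 to 0.024 (Bradi3g28950, submergence), -0.80 to 0.0047 (Bradi5g15904, heat) -0.13 to 0.90 (Bradi5g27400, heat), -0.35 to 0.0026 (Bradi1g05410, heat) and -0.057 to 0.041 (Bradi2g35720, heat). The causes were not tested. Limits are 1 value per PARE site without replicates or a depth in the files, and 2 RNA-seq libraries per condition. RNA levels came from above ground tissue, while prominent Brachypodium sites mostly named root or leaf libraries for their PARE value. Of all Brachypodium sites with a read, 29 of 172 for miR160 and 32 of 190 for miR167 named libraries outside the series.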

Other observations

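The transcript Bradi4g02473.1 carried 1 predicted site for the miR167 guide strands and another for the passenger strand miR167e-3p. Both had a TargetFinder score of 0, no psRNATarget expectation and no PARE read.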
